A study of Homo sapiens with 204 samples.

Results

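The 10 genes described here regulate or carry out the stress response of the transcription factor ATF4. They are ATF4, ATF5, ATF3, DDIT3, TRIB3, PPP1R15A, CHAC1, DDIT4, SESN2 and SLC3A2. They were found by symbol among the 41379 gene identifiers of the RNA-seq count table and the 19217 of the Ribo-seq count table, and all 10 are in both. The cells were A549, an established line from a human lung adenocarcinoma. In every library they had been transfected for 24 h with siRNA at 40 nM, treated briefly with cycloheximide to stop ribosomes where they were, and lysed. Each knockdown group was given siRNA against 1 of 75 ribosomal proteins. Of these, 44 belong to the large (60S) ribosomal subunit, with 48 libraries, and 31 to the small (40S) subunit, with 43 libraries. The control group is 11 libraries from cells given non-targeting siRNA. From each lysate, 1 aliquot gave an RNA-seq library of total mRNA and another, digested with nuclease, gave a Ribo-seq library of the mRNA fragments that ribosomes protect (footprints). Of the targets, 16 had 2 libraries per assay and 59 had 1. The series design calls the repeats biological but says no more about them, so the spread behind each p-value is that between libraries and may be technical in part.

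ATF4 is the effector of the integrated stress response. Kinases that sense unfolded protein, amino acid shortage, double-stranded RNA or haem shortage phosphorylate the initiation factor eIF2, which lowers general translation but lets ribosomes pass the short upstream reading frames of ATF4 mRNA and reach its coding sequence. ATF4 protein, alone or with C/EBP and other bZIP partners, then turns on genes for amino acid uptake and synthesis, for redox balance and, under lasting stress, for cell death. Because much of the control of ATF4, ATF5, DDIT3 and PPP1R15A acts on translation through upstream reading frames, their mRNA level and their footprints can move apart. The Ribo-seq counts cover coding sequences only, so ribosomes on those upstream frames are not in them.

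To show the letters through which ATF4 is known to act, the promoters of the 10 genes (250 bases before to 50 after each start; RefSeq, GRCh38.p14) were searched on both strands for the composite ATF and C/EBP element, TGATGNAA, and for the cyclic AMP response element, TGACGTCA. The 10 genes have 19 promoters in that table. The first motif was found in 3 of the 19, each of a different gene, and in 3.62% of 35116 promoters of the same length. The second was found in 1 of the 19 and in 1.85% of all. Both stand below in windows of 30 bases, with the motif in capitals, and no window holds both. The ATF3 window is chr1:212565205-212565234, with the motif at -191 from the start. The CHAC1 window is chr15:40953251-40953280, with the motif on the reverse strand at -209. The SLC3A2 window is chr11:62881719-62881748, with the motif on the reverse strand at 37 bases after a start. The PPP1R15A window is chr19:48872352-48872381, with the second motif at -58. All 4 genes lie on the plus strand, and a match is a description of the letters, not a measured site.
ATF3: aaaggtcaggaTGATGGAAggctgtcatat
CHAC1: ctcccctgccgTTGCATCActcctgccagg
SLC3A2: gtaatgtgcaggactccTTACATCAgctcc
PPP1R15A: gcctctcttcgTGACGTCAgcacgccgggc

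Total counts per library were 18.8 M to 63.6 M in RNA-seq and 7.77 M to 57.2 M in Ribo-seq, so that a count of 0 allowed up to 0.160 and 0.386 counts-per-million (CPM) in the shallowest library of each assay. The targeted mRNA was below every control in 91 of 91 knockdown libraries, with a median log2 ratio of -4.56. All 10 lung epithelial and A549 markers were detected at 1 CPM or more, and their summed level was 5599 to 14342 CPM in knockdowns and 6360 to 11902 CPM in controls. Blood cell markers summed to at most 4.99 CPM, with PTPRC and HBB among those at a median count of 0, and endothelial markers to at most 0.719 CPM, with VWF and CDH5 at a median count of 0. Fibroblast markers summed to 4.21 to 52.4 CPM in knockdowns and 10.4 to 25.9 CPM in controls, with COL1A2 and DCN at a median count of 0, and COL1A1 was lower by -0.67 ± 0.13 (SE, log2) in large- than in small-subunit knockdowns. In footprints HBB was higher by 3.47 ± 1.12 over all knockdowns than in control and lower by -4.43 ± 0.82 in large- than in small-subunit knockdowns. Of the 10 lung epithelial and A549 markers, 4 were higher in knockdowns in each assay, beside 13.4% of all genes in mRNA and 13.2% in footprints. Among them were ALDH3A1 (0.72 ± 0.16 in mRNA) and KRT19 (0.69 ± 0.18). Between the subunits, EPCAM was lower with the large subunit by -0.70 ± 0.15 in mRNA. Whether these RNAs bear on the results below was not tested. Control 20_2, 1 of 6 controls with numbered titles, was the highest of the 6 in mRNA for 7 of the 10 genes and the lowest in translation efficiency for 8. The RPS27L knockdown, with 1 library, was the lowest of all 75 targets in mRNA for 4 of the 10 genes and in footprints for 4. Results that change without control 20_2 or the RPS27L knockdown are given both ways. Among the 11 controls, NC7 had the highest and NC9 the lowest log2 ratio in mRNA for ATF3, DDIT3, TRIB3, PPP1R15A and SESN2. In footprints the same held for DDIT3, PPP1R15A and SLC3A2. Both have unnumbered titles, so for these genes they set the range of the 5 controls with which 59 targets are compared. Results without NC7 or NC9 are not given here.

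Levels are CPM scaled by trimmed mean of M-values (TMM). Differences are log2 values, with the SE, from edgeR's quasi-likelihood test over 15526 genes in RNA-seq and 12793 in Ribo-seq, and p-values were adjusted over all of them with the Benjamini-Hochberg method. Translation efficiency is the change in footprints relative to the change in mRNA, tested as an interaction over 12480 genes. It is relative to the other genes, so a change of translation common to all genes would not appear in it. The columns of the count tables stand in 3 runs, within each of which the knockdowns are in alphabetical order, and what the runs stand for is not given in the sources used here. Run 1 holds 4 large- and 11 small-subunit targets, run 2 holds 34 and 11, and run 3 holds 6 and 10. RPS16 has a library in each of runs 2 and 3. The runs thus differ in their mix of subunits, and the main tests have no term for the run. Run 3 holds 2 controls, both with numbered titles, while its targets other than RPS16 have unnumbered titles. The 5 controls with unnumbered titles all stand in run 2. Those run 3 targets thus meet no control of their own run in ratios to, or counts beyond, the controls of a title set. The same holds for tests in unnumbered titles. In bulk lysates, fewer cells that express a gene and less RNA per cell cannot be told apart.

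Over all knockdowns against control, SESN2 mRNA was higher and CHAC1 mRNA was lower, and the other 8 mRNAs did not pass the test. Among all genes tested, 13.4% were called higher and 17.2% lower. In footprints, TRIB3, DDIT4 and SESN2 were higher, beside 13.2% of all genes. None of the 10 was called lower in footprints, beside 13.5% of all genes, while 1 of the 10 was lower at an unadjusted p under 0.05 and none by DESeq2. The median difference of the 10 genes was 0.01 in mRNA and 0.05 in footprints, against -0.03 and -0.00 over all genes. In translation efficiency, 0 of the 10 were called by edgeR or by DESeq2 and 1 had an unadjusted p under 0.05, where 0.329% of all genes were called higher and 0.024% lower. When footprints and mRNA of the same lysate were paired (limma), TRIB3 was called higher in translation efficiency by 0.38 (adjusted p = 0.0138) and SESN2 by 0.44 (adjusted p = 0.00451).

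In mRNA, 7 of the 10 genes were higher in large- than in small-subunit knockdowns, beside 15.2% of all genes, and 0 were lower by edgeR, by DESeq2 or at an unadjusted p under 0.05, beside 16.4% of all genes. In footprints, ATF3, PPP1R15A and SLC3A2 were higher, beside 10.9% of all genes. The count of lower genes in footprints was 0 by edgeR and by DESeq2, beside 11.2%, and the 5 genes with an unadjusted p under 0.05 were all higher. The median difference was 0.35 in mRNA and 0.27 in footprints, against -0.01 over all genes in both. In translation efficiency, ATF4 alone of the 10 was called, and it was lower in large-subunit knockdowns, where 2.52% of all genes were called lower and 1.07% higher. In these tests each library is 1 unit, so 16 targets, 12 of them small-subunit, enter with 2 libraries each. With each target counted once, 6 were called in mRNA, 3 in footprints and 1 in translation efficiency. Against control the counts were then 2, 3 and 0.

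**Figure D1:**
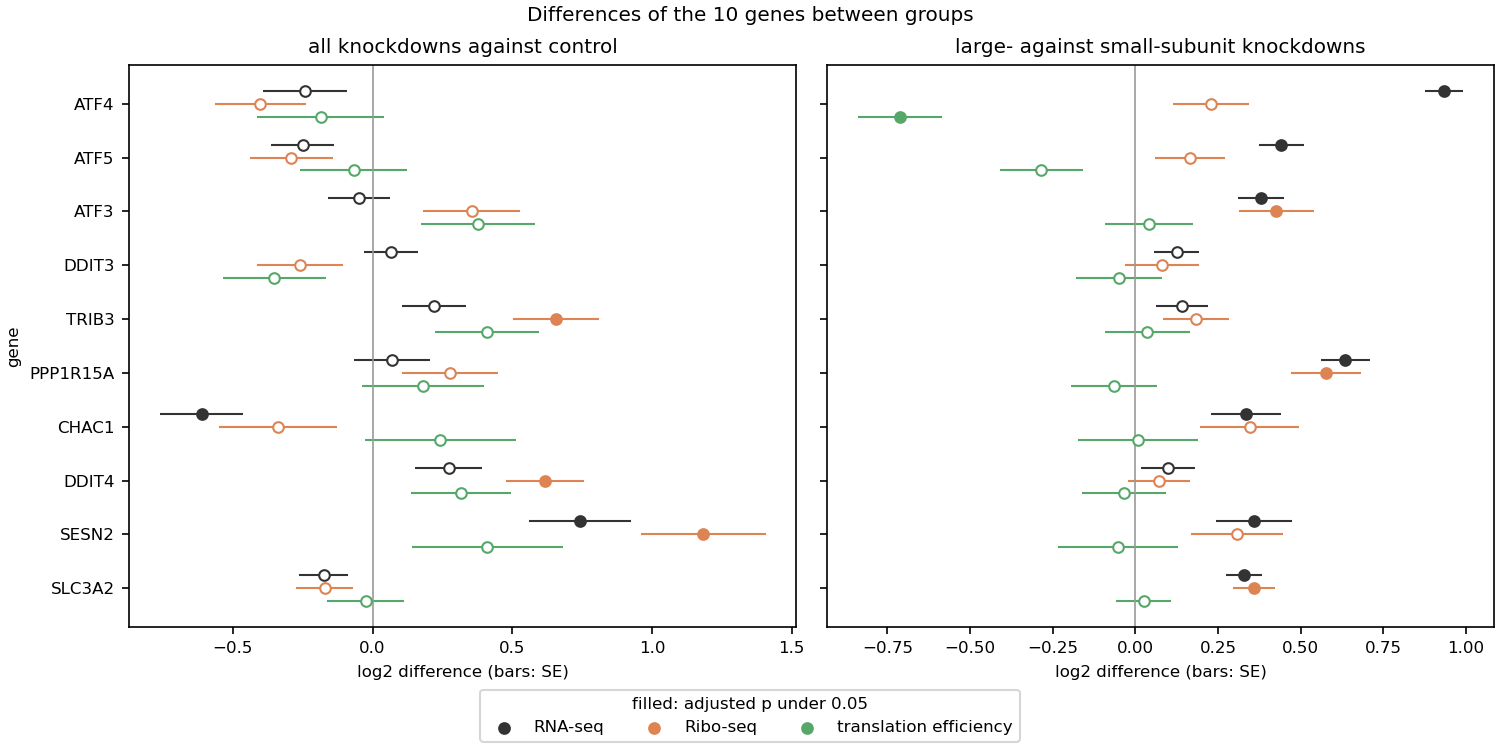
Estimated log2 differences (x axis, bars are SE) of the 10 genes (y axis) in mRNA, footprints and translation efficiency, for all knockdowns against control (left) and large- against small-subunit knockdowns (right); filled points passed the test. SESN2 has the largest difference from control among the 10 (1.18 in footprints), and ATF4 has the largest difference between the subunits in mRNA (0.93) with the opposite sign in translation efficiency (-0.71).

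ATF4 (ENSG00000128272), the central transcription factor of the response, lies on chromosome 22, at 39520559 to 39522686 (GRCh38.p14). Its mRNA was 350 to 626 CPM in the 11 controls, with a median of 470. It was 299 to 789 CPM in large-subunit knockdowns (median 457) and 184 to 420 CPM in small-subunit knockdowns (median 257). Libraries of the small-subunit knockdowns thus reached into the range of the controls but had a lower median. Averaged by target, 27 of 31 small-subunit targets lay below the lowest large-subunit target and 39 of 44 large-subunit targets lay above the highest small-subunit target. The log2 ratio to control was below 0 for all 31 small-subunit targets and above 0 for 29 of 44 large-subunit targets. The share over all genes was not computed for these counts. The same holds below for counts of targets above 0 or beyond those of the other subunit. The mRNA of 33 of the 75 targets lay below every control of their title set, beside 24.8% of all gene and target pairs. ATF4 mRNA was higher in large- than in small-subunit knockdowns by 0.93 ± 0.06 (adjusted p = 2.59e-26). Within the libraries with numbered titles the difference was 0.99, and within those with unnumbered titles it was 0.92. The lowest large-subunit target was RPL18, at a log2 ratio of -0.46, and the highest small-subunit target was RPS15, at -0.21.

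Each subunit was also compared with control, in comparisons that were added after the data were seen and that share the 11 controls. ATF4 mRNA was lower in small-subunit knockdowns by -0.73 ± 0.08 (adjusted p = 5.80e-12), and in large-subunit knockdowns it differed by 0.20 ± 0.09 (adjusted p = 0.0614). Without control 20_2, the latter was 0.25 and passed the test (adjusted p = 0.0246), and without the RPS27L knockdown it was 0.21 (adjusted p = 0.0488). It was 0.33 in numbered titles (adjusted p = 0.148), 0.12 in unnumbered titles (adjusted p = 0.472) and 0.08 without the title set term (adjusted p = 0.57), none of which passed the test. In mRNA, 5 of the 10 genes were called in each of these comparisons: 4 higher and 1 lower in large-subunit knockdowns, beside 15.5% and 20.0% of all genes, and 1 higher and 4 lower in small-subunit knockdowns, beside 13% and 15.9%.

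ATF4 footprints were 14.3 to 20.3 CPM in controls (median 17.3), 3.28 to 38.9 CPM in large-subunit knockdowns (median 14.5) and 2.68 to 21.2 CPM in small-subunit knockdowns (median 12.6). Both knockdown groups spread beyond the controls on either side, and their ranges overlapped. Averaged by target, 3 of 44 large-subunit targets lay above the highest small-subunit target, and 1 of 31 small-subunit targets lay below the lowest large-subunit target. The footprints of 41 of the 75 targets lay below every control of their title set, beside 24.4% of all gene and target pairs. The difference between the subunits was 0.23 ± 0.11 and did not pass the test (adjusted p = 0.146). Against control, ATF4 footprints were lower in small-subunit knockdowns by -0.51 ± 0.17 (adjusted p = 0.0179), with -0.68 in numbered and -0.30 in unnumbered titles, and the latter alone did not pass the test. In large-subunit knockdowns the difference from control was -0.28 ± 0.17 (adjusted p = 0.224). Over all knockdowns it was -0.40 ± 0.16 (adjusted p = 0.0548), and -0.40 without the RPS27L knockdown, where it passed the test (adjusted p = 0.045). In footprints, 5 of the 10 genes were called in each of these comparisons, all 5 higher in large-subunit knockdowns (14.9% of all genes higher, 14.9% lower) and 3 higher and 2 lower in small-subunit knockdowns (12.5% and 12.4%).

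Translation efficiency subtracts the change in mRNA from that in footprints, and between the subunits ATF4 differed more in mRNA than in footprints. The translation efficiency of ATF4 therefore had the opposite sign to its mRNA in this comparison. Averaged by target, the log2 ratio to control had a median of -0.31 over large-subunit targets and 0.36 over small-subunit targets. It was above 0 for 10 of 44 and for 22 of 31 targets, and the control libraries ranged from -0.48 to 0.49. The 3 highest targets, RPS3A (1.20), RPSA (1.00) and RPS2 (0.86), stand in run 3 with unnumbered titles. The difference between the subunits was -0.71 ± 0.13 (adjusted p = 1.02e-05), or -0.65 with the lysates paired (limma, adjusted p = 5.88e-05). It was -0.51 in numbered titles alone, where it did not pass the test (adjusted p = 0.537), and -0.84 in unnumbered titles (adjusted p = 2.40e-04). The unnumbered titles stand in runs 2 and 3, which differ in their mix of subunits. Within run 1 and within run 2 of the columns the difference did not pass the test, and within run 3 it did. Against control neither subunit passed the test in translation efficiency. In each of these 2 comparisons edgeR called 0 of the 10 genes, beside 0.393% of all genes higher and 0.345% lower for the large subunit and 0.433% and 0.12% for the small. At an unadjusted p under 0.05 there were 3 of the 10 for the large subunit and 1 for the small. With the lysates paired, ATF3, TRIB3 and SESN2 were called higher in large-subunit knockdowns, and TRIB3 and SESN2 in small-subunit knockdowns.

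**Figure D2:**
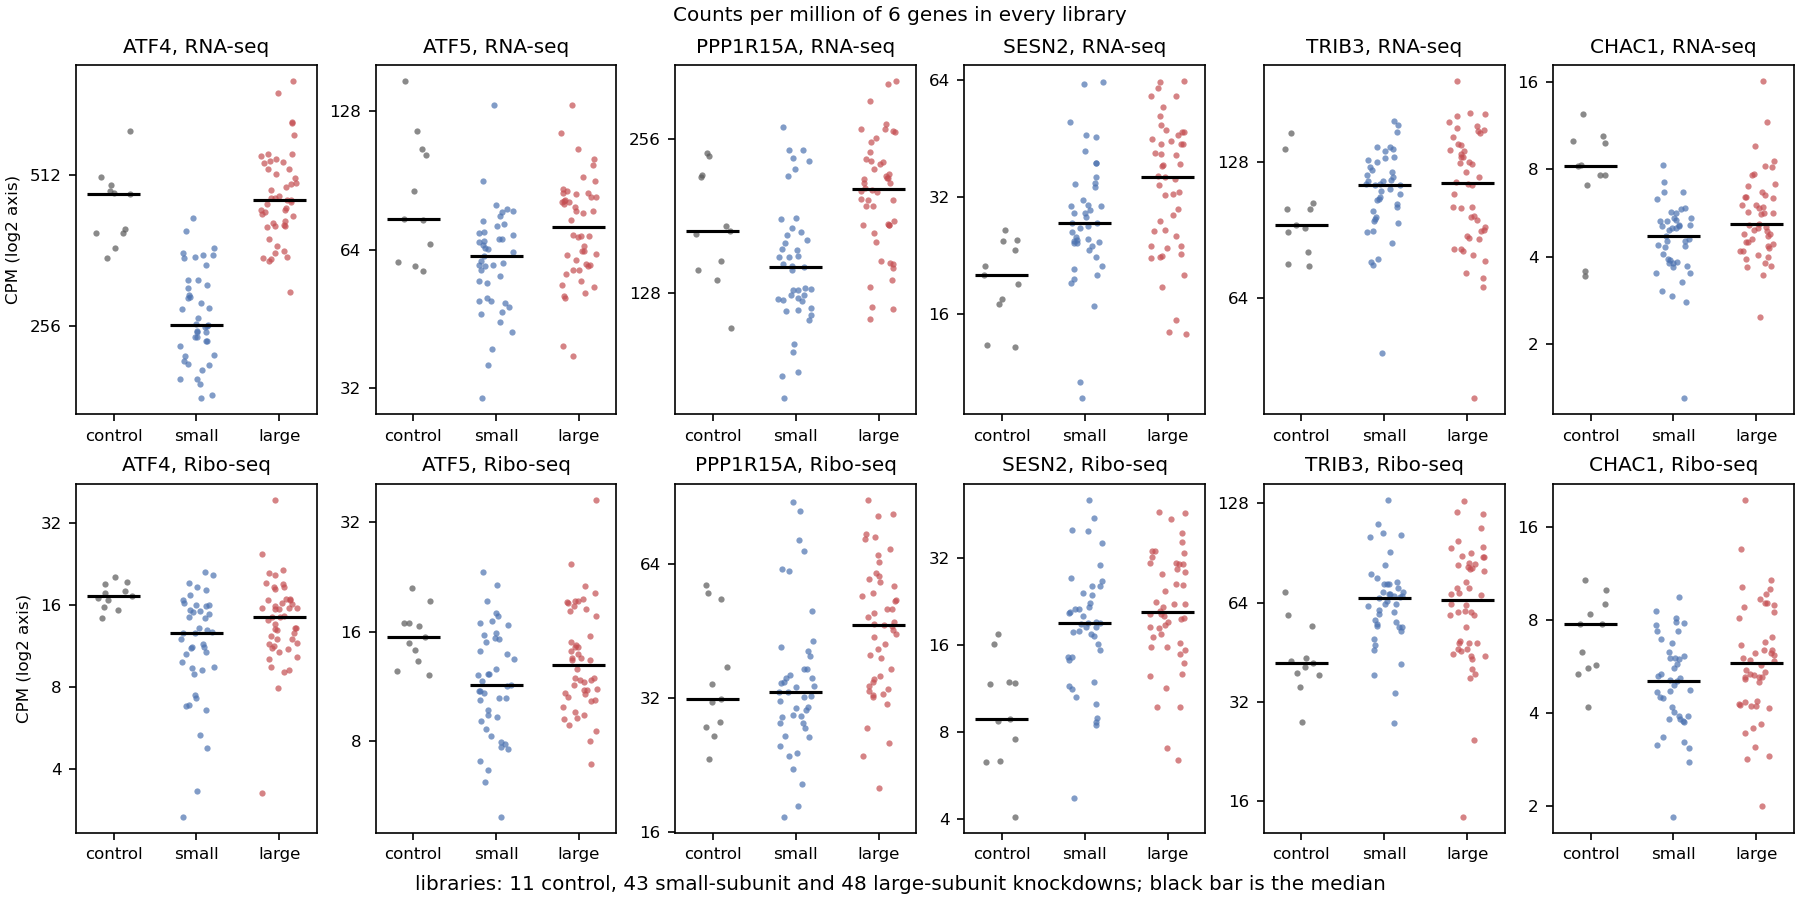
CPM (y axis, log2 scale) of 6 of the genes in every library, RNA-seq above and Ribo-seq below, by group (x axis: 11 control, 43 small-subunit and 48 large-subunit libraries); black bars are medians, and the RPS27L library with 0 CHAC1 footprint counts has no place on the log axis. ATF4 mRNA has a median of 257 CPM in small-subunit and 457 CPM in large-subunit knockdowns, while its footprints have medians of 12.6 and 14.5 CPM.

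ATF5 (chromosome 19), a close relative of ATF4 whose translation also depends on upstream reading frames, had 57.5 to 149 CPM of mRNA in controls, 37.6 to 132 in large-subunit and 30.4 to 132 in small-subunit knockdowns. The groups overlapped, with medians of 74.5, 71.6 and 62.1 CPM. ATF5 mRNA was higher in large- than in small-subunit knockdowns by 0.44 ± 0.07 (adjusted p = 2.38e-07), with 0.46 in numbered and 0.41 in unnumbered titles, and 17 of 44 large-subunit targets lay above the highest small-subunit target. Its footprints had medians of 15.5 CPM in controls, 12.97 in large-subunit and 11.4 in small-subunit knockdowns, with overlapping ranges. The difference between the subunits in footprints was 0.16 ± 0.11 (adjusted p = 0.27), and in translation efficiency -0.28 ± 0.13 (adjusted p = 0.261). Against control, ATF5 mRNA was lower in small-subunit knockdowns by -0.46 ± 0.10 (adjusted p = 1.94e-04), with -0.57 in numbered titles and -0.29 in unnumbered titles, where it did not pass the test (adjusted p = 0.191).

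ATF3 (chromosome 1), a bZIP factor induced by ATF4 and by many other stresses, had 12.2 to 27.9 CPM of mRNA in controls, 11.4 to 26.05 in large-subunit knockdowns (median 17.99) and 9.66 to 22.99 in small-subunit knockdowns (median 13.7). It was higher in large- than in small-subunit knockdowns by 0.38 ± 0.07 in mRNA (adjusted p = 1.04e-05) and by 0.43 ± 0.11 in footprints (adjusted p = 0.00314), and the ranges overlapped in both. The mRNA difference was 0.43 in numbered and 0.38 in unnumbered titles. The footprint difference was 0.47 in numbered titles, where it did not pass the test (adjusted p = 0.0815), and 0.44 in unnumbered titles (adjusted p = 0.0367). Against control, ATF3 footprints were higher in large-subunit knockdowns by 0.57 ± 0.18 (adjusted p = 0.00873) and differed by 0.14 ± 0.17 in small-subunit knockdowns (adjusted p = 0.581). The large-subunit difference was 0.76 in numbered titles and 0.41 in unnumbered titles, where it did not pass the test (adjusted p = 0.327).

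DDIT3 (CHOP, chromosome 12), a bZIP partner that promotes cell death under lasting stress, had similar medians of mRNA in the 3 groups: 45.9 CPM in controls, 48.1 in large-subunit and 45.4 in small-subunit knockdowns. The differences were 0.07 ± 0.10 from control (adjusted p = 0.648) and 0.12 ± 0.07 between the subunits (adjusted p = 0.152). Its footprints were 12.8 to 42.4 CPM in controls, 8.99 to 42.3 in large-subunit and 4.45 to 37.3 in small-subunit knockdowns. Over all knockdowns they differed from control by -0.26 ± 0.15 (adjusted p = 0.209), but single targets moved further, as given below. In translation efficiency 39 of the 75 targets lay below every control of their title set, beside 14.2% of all gene and target pairs.

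TRIB3 (chromosome 20), a pseudokinase that ATF4 and DDIT3 induce and that restrains both, had 75.5 to 148 CPM of mRNA in controls (median 92.8), with medians of 115 in large-subunit and 114 in small-subunit knockdowns. The mRNA difference from control was 0.22 ± 0.11 (adjusted p = 0.135). Its footprints were 27.9 to 68.7 CPM in controls (median 42.0), 14.3 to 130 in large-subunit knockdowns (median 65.3) and 27.6 to 131 in small-subunit knockdowns (median 65.9). TRIB3 footprints were higher in knockdowns by 0.66 ± 0.15 (adjusted p = 5.89e-04), and 43 of 75 targets lay above every control of their title set, beside 24.9% of all gene and target pairs. The difference was 0.73 in numbered titles (adjusted p = 0.00133) and 0.58 in unnumbered titles, where it did not pass the test (adjusted p = 0.155). In translation efficiency 51 of the 75 targets lay above every control, beside 14.8% of all pairs. Between the subunits the footprints differed by 0.18 ± 0.10 (adjusted p = 0.188). Against control, TRIB3 mRNA passed the test in large-subunit knockdowns (0.29 ± 0.12, adjusted p = 0.0484), a call that was lost with library totals in place of TMM, without the title set term, or when the run of columns was a covariate. The difference was 0.53 in numbered titles (adjusted p = 0.00795) and 0.12 in unnumbered titles, where it did not pass the test (adjusted p = 0.679).

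PPP1R15A (GADD34, chromosome 19), the phosphatase subunit that removes the phosphate from eIF2 and ends the response, followed the subunit of the target in both assays. Its mRNA had a median of 169 CPM in controls, 204 in large-subunit and 144 in small-subunit knockdowns, with ranges of 109.6 to 240.02, 114 to 332 and 80.0 to 269 CPM. Its footprints had medians of 31.9, 46.8 and 33.0 CPM in the same order. The groups overlapped, and 26 of 44 large-subunit targets had more mRNA than the highest small-subunit target. PPP1R15A was higher in large- than in small-subunit knockdowns by 0.64 ± 0.07 in mRNA (adjusted p = 2.15e-11; 0.65 in numbered and 0.63 in unnumbered titles) and by 0.58 ± 0.11 in footprints (adjusted p = 1.63e-05; 0.68 and 0.55). Against control, it was higher in large-subunit knockdowns by 0.39 ± 0.11 in mRNA (adjusted p = 0.00459) and by 0.56 ± 0.16 in footprints (adjusted p = 0.00571). Neither title set alone passed the test in mRNA (0.47 and 0.33), and in footprints the numbered titles did (0.77, adjusted p = 0.0464) and the unnumbered did not (0.41, adjusted p = 0.21). In small-subunit knockdowns it differed by -0.25 ± 0.11 (adjusted p = 0.0701) and -0.02 ± 0.16 (adjusted p = 0.948).

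CHAC1 (chromosome 15), which degrades glutathione and is a widely used readout of ATF4 activity, was lower in knockdowns. Its mRNA was 3.42 to 12.5 CPM in controls (median 8.21), 2.48 to 16.1 in large-subunit knockdowns (median 5.17) and 1.30 to 8.28 in small-subunit knockdowns (median 4.73). The groups overlapped. CHAC1 mRNA was lower by -0.61 ± 0.15 over all knockdowns (adjusted p = 9.23e-04), by -0.43 ± 0.16 in large-subunit knockdowns (adjusted p = 0.0242) and by -0.77 ± 0.15 in small-subunit knockdowns (adjusted p = 3.79e-05). The difference over all knockdowns was -0.86 in numbered titles and -0.28 in unnumbered titles, and the latter did not pass the test (adjusted p = 0.455). Without control 20_2, the large-subunit difference was -0.35 and did not pass the test (adjusted p = 0.0852). Between the subunits CHAC1 mRNA was higher with the large subunit by 0.33 ± 0.10 (adjusted p = 0.00919), with 0.56 in numbered titles and 0.18 in unnumbered titles, where it did not pass the test (adjusted p = 0.357). CHAC1 footprints were 4.19 to 10.8 CPM in controls and differed over all knockdowns by -0.34 ± 0.21 (adjusted p = 0.234). In small-subunit knockdowns they differed by -0.50 ± 0.22 (adjusted p = 0.0733), and by -0.48 without the RPS27L knockdown, where they passed the test (adjusted p = 0.0423). In the RPS27L knockdown, 0 of 28662510 Ribo-seq counts fell on CHAC1, which allows up to 0.105 CPM.

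DDIT4 (REDD1, chromosome 10), an inhibitor of the growth kinase mTORC1, had 78.2 to 175 CPM of mRNA in controls (median 119), with medians of 149.7 in large-subunit and 142 in small-subunit knockdowns. The mRNA difference from control was 0.27 ± 0.12 (adjusted p = 0.0729), and 0.34 without control 20_2, where it passed the test (adjusted p = 0.0281). Its footprints were 94.0 to 152 CPM in controls (median 130.3), 102 to 429 in large-subunit knockdowns (median 208) and 91.9 to 475 in small-subunit knockdowns (median 187). They were higher in knockdowns by 0.62 ± 0.14 (adjusted p = 3.68e-04), and 59 of 75 targets lay above every control of their title set, beside 24.9% of all gene and target pairs. The difference was 0.56 in numbered titles (adjusted p = 0.00725) and 0.69 in unnumbered titles (adjusted p = 0.0527). Between the subunits DDIT4 footprints differed by 0.07 ± 0.09 (adjusted p = 0.632).

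SESN2 (chromosome 1), a leucine sensor that inhibits mTORC1 and that p53 as well as ATF4 can induce, had the largest difference from control among the 10. Its mRNA was 13.2 to 26.3 CPM in controls (median 20.1), 14.2 to 63.5 in large-subunit knockdowns (median 36.04) and 9.70 to 63.2 in small-subunit knockdowns (median 27.4). Its footprints were 4.06 to 17.4 CPM in controls (median 8.87), with medians of 20.7 and 19.1 CPM in the knockdown groups. SESN2 was higher in knockdowns by 0.74 ± 0.18 in mRNA (adjusted p = 9.74e-04) and by 1.18 ± 0.22 in footprints (adjusted p = 2.03e-05). The footprint difference was 1.08 in numbered and 1.31 in unnumbered titles. The mRNA difference was 0.62 in numbered titles, where it did not pass the test (adjusted p = 0.0965), and 0.91 in unnumbered titles (adjusted p = 0.0163). The footprints of 61 of 75 targets and the mRNA of 51 of 75 lay above every control of their title set, beside 24.9% and 23.9% of all gene and target pairs. Between the subunits, SESN2 mRNA was higher with the large subunit by 0.36 ± 0.11 (adjusted p = 0.0113), but neither title set alone passed the test (0.48 and 0.29).

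SLC3A2 (CD98 heavy chain, chromosome 11), the partner of the amino acid transporters SLC7A5 and SLC7A11, had 451 to 857 CPM of mRNA in controls (median 603), with medians of 543 in large-subunit and 464 in small-subunit knockdowns. Its footprints had medians of 2002, 2009 and 1532 CPM in the same order, and ranges of 1761 to 2316, 1185 to 2729 and 893 to 2580 CPM that overlapped. SLC3A2 was higher in large- than in small-subunit knockdowns by 0.33 ± 0.05 in mRNA (adjusted p = 7.34e-07; 0.56 in numbered and 0.23 in unnumbered titles) and by 0.36 ± 0.06 in footprints (adjusted p = 8.69e-06; 0.55 and 0.28). Within the columns of run 3 neither passed the test, at -0.02 in mRNA (adjusted p = 0.937) and 0.03 in footprints (adjusted p = 0.931). In both assays it was lower in small-subunit knockdowns than in control, by -0.34 ± 0.08 (adjusted p = 5.56e-04) and -0.35 ± 0.09 (adjusted p = 0.00296). Each title set alone passed the test in mRNA (-0.30 and -0.36) and neither did in footprints (-0.33 and -0.37). In large-subunit knockdowns the differences from control were -0.01 ± 0.08 (adjusted p = 0.943) and 0.01 ± 0.10 (adjusted p = 0.947).

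**Figure D3:**
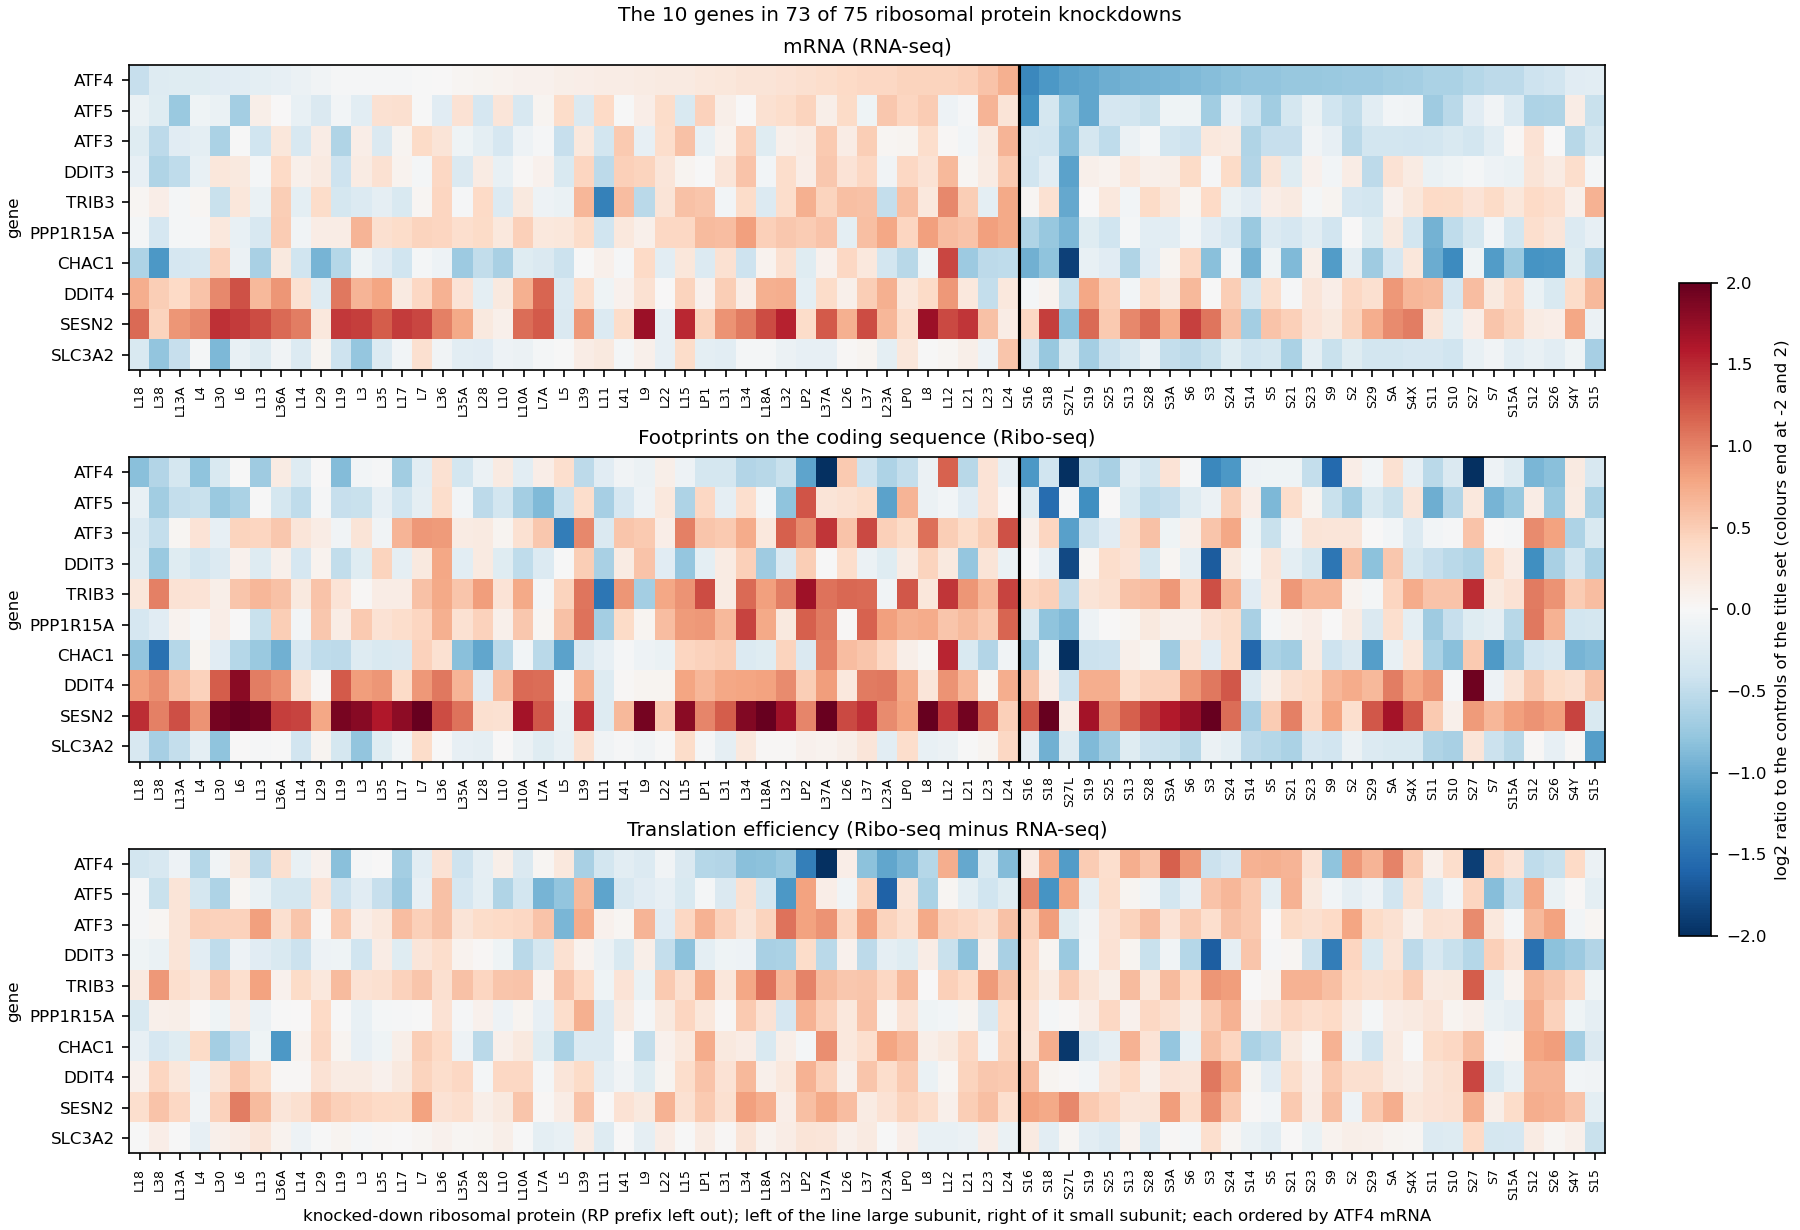
Log2 ratio to the controls of the title set (colour, ending at -2 and 2) for the 10 genes (rows) in the knockdowns shown (columns, large subunit left of the line, each side ordered by ATF4 mRNA), in mRNA, footprints and translation efficiency. ATF4 mRNA is below control in every small-subunit knockdown shown, and the deepest red lies in SESN2 footprints, up to a log2 ratio of 2.42 with RPL6.

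The 16 targets with 2 libraries were each tested against the 6 controls with numbered titles. Of the 160 pairs of gene and target, 28 were higher and 40 lower in mRNA, beside 10.8% and 12.5% of all such pairs. In footprints 51 were higher and 40 lower, beside 13.9% and 15.4%, and in translation efficiency 10 were higher and 8 lower, beside 1.07% and 0.984%. Of the 120 pairs of the 12 small-subunit targets, 37 were lower and 14 higher in mRNA. Of the 40 pairs of the 4 large-subunit targets (RPL15, RPL21, RPL24 and RPL29), 3 were lower and 14 higher. Over all 15526 genes, 1180 to 2927 were lower per small-subunit target and 862 to 2939 per large-subunit target. Per large-subunit target 710 to 2423 of all genes were higher, and the share per subunit over all genes was not computed. Without control 20_2, 86 pairs were called in mRNA in place of 68. ATF4 mRNA was 392 to 626 CPM in the controls of this test.

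By gene, ATF4 mRNA was lower in 11 of the 12 small-subunit targets (not RPS15) and higher in RPL21 and RPL24. In the 2 RPS16 libraries ATF4 mRNA was 184 and 201 CPM, below all 6 controls, a difference of -1.30 ± 0.14 (adjusted p = 1.35e-07). These 2 libraries stand in runs 2 and 3 of the columns, while 4 of the 6 controls stand in run 1 and 2 in run 3, so the first RPS16 library has no control of its own run in this test. In the 2 RPL24 libraries it was 789 and 747 CPM, above all 6 controls, a difference of 0.68 ± 0.12 (adjusted p = 1.37e-04). CHAC1 mRNA was lower in 15 of the 16 targets, and in RPL15, the exception, it differed by 0.19 ± 0.19 (adjusted p = 0.484). SESN2 mRNA was higher in 8 of the 16 targets. In the 2 RPL15 libraries it was 60.9 and 63.1 CPM against 16.95 to 26.3 in the 6 controls, with no overlap, a difference of 1.49 ± 0.13 (adjusted p = 1.23e-09). TRIB3 footprints were higher in 13 of the 16 targets, DDIT4 footprints in 12 and SESN2 footprints in 11.

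DDIT3 footprints were lower in 9 of the 16 targets. Its mRNA was lower in RPS16, which is not among the 9, and higher in 2 targets, RPL24 among them. In the RPS3 libraries DDIT3 footprints were 4.45 and 5.56 CPM, against 12.8 to 20.98 CPM in the 6 controls, with no overlap, while its mRNA was 45.6 and 40.95 CPM against 36.6 to 48.6. The translation efficiency of DDIT3 was lower in 5 targets, among them RPS3 (-1.74 ± 0.24, adjusted p = 7.14e-06), RPS12, RPS9 and RPL21. That of TRIB3 was higher in 3 targets, among them RPS3 (0.92 ± 0.23, adjusted p = 0.0148) and RPS12, and that of DDIT4 in 5 targets, with RPS3 the highest at 1.09 ± 0.20 (adjusted p = 7.12e-04). The translation efficiency of ATF4 was lower in RPL21 (-1.05 ± 0.23, adjusted p = 0.00621), RPL24 and RPS9. In RPL21 this joined mRNA of 652 and 651 CPM, above the controls, to footprints of 11.5 and 12.1 CPM, below the 15.3 to 19.5 CPM of the controls.

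**Figure D4:**
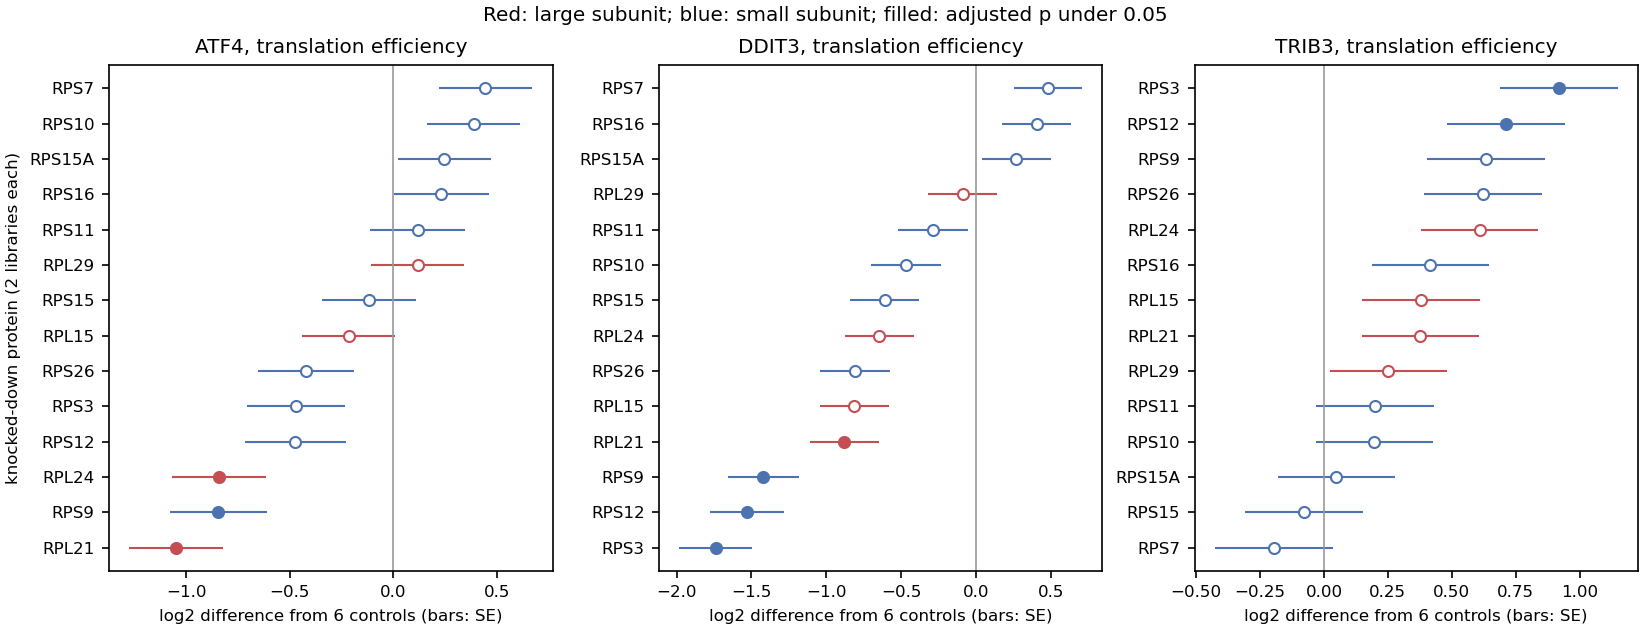
Difference in translation efficiency from the 6 controls with numbered titles (x axis, log2, bars are SE) for ATF4, DDIT3 and TRIB3 in the knockdowns shown of the 16 with 2 libraries (y axis); red is the large subunit, blue the small, and filled points passed the test. DDIT3 is lowest in RPS3 (-1.74), where TRIB3 is highest (0.92).

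The remaining targets have 1 library each, so their values are descriptions with no test. RPL12 stood at the upper end for several of the genes: CHAC1 mRNA was 16.1 CPM there, DDIT3 mRNA 67.9 and TRIB3 mRNA 193, the highest of the 75 targets in each case, and ATF4 footprints were 38.9 CPM, a log2 ratio of 1.18. Over the 10 genes the mean log2 ratio of RPL12 was 0.62 in mRNA and 0.75 in footprints. RPS27L stood at the lower end, with means of -0.92 and -1.08, and 8 of the 10 genes lay below every control of the title set in each assay, where 24.8% of all gene and target pairs did so in mRNA and 24.4% in footprints. The translation efficiency of ATF4 was lowest with RPL37A (-2.56), where its mRNA was 526.1 CPM and its footprints were 3.28 CPM (54 counts). It was next lowest with RPS27 (-1.88), from 40 footprint counts. TRIB3 was lowest with RPL11 in both assays, at 38.4 CPM of mRNA and 14.3 CPM of footprints, although the RPL11 ratio for ATF4 mRNA was 0.15. The highest log2 ratio of SESN2 footprints was with RPL6 (2.42, at 43.8 CPM), and that of its mRNA with RPL8 and RPL9 (1.71, at 58.2 CPM each). DDIT4 footprints were highest with RPS27, at 475 CPM.

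How closely footprints followed mRNA differed among the genes. For each r over the 75 targets or within a subunit, log2 ratios were centred on the mean of the targets of their title set. The numbered titles hold 4 large- and 12 small-subunit targets, and the unnumbered 40 and 19. These means thus differ in their mix of subunits, so an r within a subunit is not free of the difference between the subunits. Over the 75 targets, Pearson's r between the 2 log2 ratios was 0.23 for ATF4, 0.30 for ATF5 and 0.53 for DDIT3, and 0.74 to 0.91 for the other 7, with SESN2 the highest. Within the 44 large-subunit targets it was 0.17 for ATF4, 0.32 for ATF5, 0.67 for DDIT3 and 0.92 for SESN2. Within the 31 small-subunit targets it was 0.18, 0.21, 0.41 and 0.88. Both ratios of a target come from 1 lysate and share the controls. Over the 16 targets with 2 libraries, ATF4 values of the first and second library had an r of 0.98 in mRNA and 0.73 in footprints, and SESN2 values an r of 0.96 and 0.88. ATF4 footprints rest on fewer counts than its mRNA, down to 40 per library against 3686. Mean footprints in controls were 17.3 CPM for ATF4, 15.8 for ATF5, 9.08 for ATF3 and 7.37 for CHAC1. Over the 75 targets their r was 0.23, 0.30, 0.81 and 0.74 in the same order. Whether low counts bear on r was not tested.

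**Figure D5:**
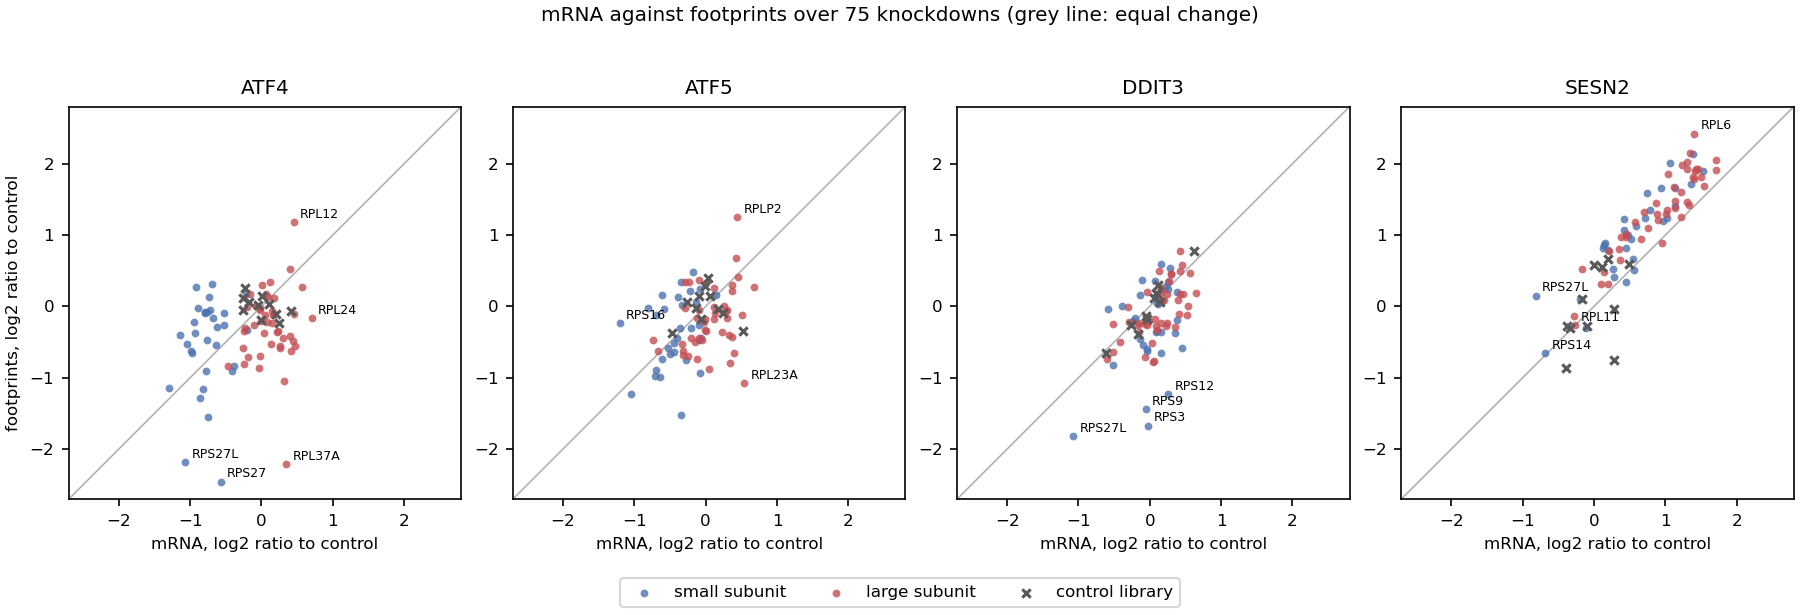
Log2 ratio of footprints (y axis) against that of mRNA (x axis) for ATF4, ATF5, DDIT3 and SESN2 in the 75 knockdowns (blue small subunit, red large subunit) and the 11 control libraries (crosses); the grey line marks equal change. ATF4 points spread along both axes with an r of 0.23, while SESN2 points run alongside the line with an r of 0.91, most of them above it. The points are not centred, while each r is from ratios centred within the title set.

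The centred log2 ratios of the genes were also compared with each other over the 75 targets, which share controls and, within a target, the library. How often r is above 0 among pairs of other genes was not computed, so the counts below have no share to stand beside. Of the 45 pairs among the 10 genes, r was above 0 for 42 in mRNA (median 0.34), for 37 in footprints (median 0.24) and for 29 in translation efficiency (median 0.25). Within large-subunit targets the counts were 35 (median 0.27), 34 (0.24) and 33 (0.19), and within small-subunit targets they were 41 (0.32), 36 (0.28) and 28 (0.33). In mRNA the highest r over all targets was between ATF4 and PPP1R15A (0.78), at 0.67 within large-subunit and 0.48 within small-subunit targets, followed by ATF4 and ATF5 (0.65 and 0.63). In footprints the r of ATF4 and ATF5 was -0.10 and -0.34. In translation efficiency, TRIB3 and DDIT4 had the highest r over all targets (0.79; 0.69 and 0.87 within the subunits), and DDIT3 and TRIB3 the lowest over all targets, at -0.16 within large-subunit and -0.63 within small-subunit targets.

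Other genes of the pathway are given by list. Of 26 ATF4 target enzymes and transporters tested, 12 were lower and 0 higher in knockdowns than in control in mRNA, beside 17.2% and 13.4% of all genes, with a median of -0.26 against -0.03 over all genes. In footprints 12 were lower and 1 higher, beside 13.5% and 13.2%. Lower mRNAs with the smallest p were PYCR1, an enzyme of proline synthesis (-0.40 ± 0.07), and the amino acid transporters SLC43A1 (-0.52 ± 0.11) and SLC1A4 (-0.59 ± 0.13). In footprints these were XPOT, the exporter of tRNA (-0.67 ± 0.11), ASNS, asparagine synthetase (-0.52 ± 0.10), and MTHFD2, a mitochondrial folate enzyme (-0.59 ± 0.12). Between the subunits, 10 of the 26 were higher with large-subunit knockdowns and 1 lower in mRNA, beside 15.2% and 16.4% of all genes, and 7 were higher in footprints, beside 10.9%. In both assays the 3 with the smallest p were SLC38A2, an amino acid transporter (0.47 ± 0.08 in mRNA), GDF15, a secreted stress cytokine that is also in the p53 list (0.70 ± 0.11), and STC2, a secreted glycoprotein (0.58 ± 0.10).

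Of 16 genes of the endoplasmic reticulum stress response, 11 in mRNA and 12 in footprints were higher in large- than in small-subunit knockdowns, beside 15.2% and 10.9% of all genes, with medians of 0.23 and 0.27 against -0.01 over all genes. They included the chaperones CALR (0.40 ± 0.07 in mRNA) and HSPA5 (0.37 ± 0.07) and the degradation factor HERPUD1 (0.36 ± 0.08). Against control, 2 of these 16 were lower in mRNA, beside 17.2% of all genes: SDF2L1 (-0.39 ± 0.09) and MANF (-0.35 ± 0.09). Of 15 eIF2 kinases and eIF2 and eIF2B genes, 5 were higher and 1 lower with the large subunit in mRNA, beside 15.2% and 16.4% of all genes. Among them DELE1, the mitochondrial activator of the haem-regulated kinase (0.29 ± 0.04), and EIF2S3, the gamma subunit of eIF2 (0.45 ± 0.07), were higher, and EIF2AK2, the kinase PKR, was lower (-0.42 ± 0.09). In translation efficiency 1 of the 15 was higher and 2 were lower, beside 1.07% and 2.52% of all genes: EIF2AK4, the kinase GCN2, was higher by 0.33 ± 0.09, and EIF2S3 (-0.59 ± 0.11) and DELE1 (-0.25 ± 0.08) were lower.

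Of 24 p53 target genes, 21 were higher in knockdowns than in control in each assay, beside 13.4% of all genes in mRNA and 13.2% in footprints, with medians of 0.95 in mRNA and 1.02 in footprints. Those with the smallest p in mRNA were XPC, a DNA damage sensor (1.47 ± 0.16), BBC3, a promoter of cell death (1.37 ± 0.20), and DDB2, another DNA damage sensor (0.81 ± 0.12). Between the subunits, 11 of the 24 were higher with the large subunit in mRNA and 12 in footprints, beside 15.2% and 10.9%. Of 7 tested paralogs of the 10 genes, SESN1, a p53 target like SESN2, was higher in knockdowns (1.53 ± 0.27), and CHAC2 (-0.69 ± 0.12) and PPP1R15B, the constitutive counterpart of PPP1R15A (-0.32 ± 0.09), were lower in mRNA, beside 13.4% of all genes higher and 17.2% lower. Of 21 bZIP relatives and partners, 4 were higher and 4 lower in mRNA, beside 13.4% and 17.2% of all genes, with ATF1 (0.85 ± 0.10) and CEBPA (-0.82 ± 0.14) at the smallest p. CEBPB, a C/EBP partner of ATF4, was higher with the large subunit by 0.39 ± 0.07.

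Over the 75 targets, the mRNAs outside the 10 whose log2 ratios were most like the mean of the 10 were ENSG00000274760, ENSG00000277967, LURAP1L, STC2 and SMOX, with r from 0.74 down to 0.73 among 11639 genes. In footprints they included TNFAIP3, STC2, IGFBP1 and SQSTM1, with r from 0.74 down to 0.70 among 10182 genes. STC2 was in both sets.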

How the data were processed

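The values are whole-number read counts per gene that the authors deposited in a table for each assay. Per the file headers, RNA-seq reads were counted in exons and Ribo-seq reads in coding sequences. The submitters' processing notes name STAR 2.6.1, the build GRCh38, cutadapt 1.8.1 and bcl2fastq 2.20.0.422. Not given in the sources used here are the counting program, its use of strand and the annotation's release, so reads shared with overlapping or near-identical genes may be split. Libraries were grouped by their titles and columns. Symbols were paired with 40811 of 41379 and 19119 of 19217 identifiers.

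Genes at 1 CPM or more in at least 11 libraries were tested with edgeR 4.0.16 (TMM, quasi-likelihood, R 4.3.3), with the title set (numbered or unnumbered) as a covariate and a threshold of 0.05 on the Benjamini-Hochberg adjusted p. Translation efficiency was the assay by group interaction. limma 3.58.1 on log2 ratios per lysate (prior count 2) paired the assays, whose deviations had a median r of 0.13 over 43 lysates. Log2 ratios by target used CPM plus 0.5 against the mean of the title set's controls. For each r over the 75 targets or within a subunit they were centred on the mean of the targets of each title set. DESeq2 1.42.0, other filters and scalings, each title set and run of columns, and left-out libraries were alternatives. The scripts were tested on simulated data. Comparisons of each subunit with control (also without control 20_2), those that use runs of columns, and those without RPS27L were chosen after seeing the data. The 10 genes and all lists (eIF2 genes, bZIP relatives, paralogs, ATF4 targets, endoplasmic reticulum stress, p53 targets and cell type markers) were chosen with earlier results of these data known. Genes named are the 10, up to 3 genes of a list with the smallest p among those that passed, and the 5 genes with the highest r with the mean of the 10. Other genes named beside these were chosen after their values were seen. Some targets and genes are counted in the totals but their own results are not reported here.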

Additional observations from a re-analysis of the deposited data

Results flagged for a closer look

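Of the 10 genes, 7 in mRNA, 3 in footprints and 1 in translation efficiency differed between large- and small-subunit knockdowns by the test of that difference itself (edgeR). In mRNA the log2 differences, large minus small, were 0.9335 for ATF4, 0.4416 for ATF5, 0.3795 for ATF3, 0.6351 for PPP1R15A, 0.3344 for CHAC1, 0.3582 for SESN2 and 0.3286 for SLC3A2. In footprints they were 0.4264 for ATF3, 0.5762 for PPP1R15A and 0.3599 for SLC3A2. In translation efficiency the difference was -0.7122 for ATF4. In 40 control groups of 5 or 6 libraries, none had a library apart from the rest by the gap to its nearest neighbour.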

How the results depend on the processing

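The counts below are of the 10 genes called, or of the 160 pairs of gene and target. Against control, all knockdowns called 2 genes in mRNA, but 1 in unnumbered titles alone, 1 in run 2 of the columns and 0 in run 3. In footprints they called 3, but 1 in unnumbered titles, 1 in run 1, 1 in run 2 and 0 in run 3. Between the subunits, 7 were called in mRNA, 6 with each target counted once, and 2 in run 3. In footprints 3 were called, with 5 without the title set term and 0 in run 3. In translation efficiency 1 was called, and 0 in numbered titles, in run 1 or in run 2. Large-subunit knockdowns against control called 5 in mRNA, 3 without the title set term, 2 in numbered and 1 in unnumbered titles, and 5 in footprints against 2 in unnumbered titles. Small-subunit knockdowns called 5 in mRNA against 2 in unnumbered titles, and 5 in footprints against 1. SLC3A2 mRNA, large minus small, reversed to -0.0192 in run 3 (adjusted p = 0.937). Each run and title set holds fewer libraries.

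With the replicate block that pairs the assays of 1 lysate, translation efficiency called 2 of the 10 for all knockdowns, 3 for the large and 2 for the small subunit, in place of 0 in each. Replicate numbers did not pair libraries of different targets (33.3% of 120 pairs over 0.1 in r in mRNA, 25% in footprints). A block on them gave 88 of 160 pairs in mRNA and 93 in footprints, against 92 and 92 in the same libraries without it. Leaving out replicate 1 or 2 of every target left 1 library per target, assumed to vary like the controls, and called 0 to 0 pairs in mRNA in place of 68, 8 to 12 in footprints in place of 91, and 0 to 0 in translation efficiency in place of 18. Low footprint counts, down to 40 for ATF4 and 0 for CHAC1, limit the footprint values of single targets.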
